A study of Mus musculus with 15 samples.

Results

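The comparison described here sets LPS+IFNg directly against TGFb in cultured mouse microglia, across all genes of the table, without passing through the untreated cells. Its members are 6 of the 15 libraries of the series, 3 of cells given LPS+IFNg and 3 of cells given TGFb, chosen by the stimulation in the labels. All cells were ESdM, microglia differentiated from C57BL/6-ATCC mouse embryonic stem cells and kept in N2 medium, so the groups shared line, strain and medium. The LPS+IFNg group received lipopolysaccharide (500 ng/ml) and interferon gamma (20 ng/ml) together, the TGFb group received transforming growth factor beta (50 ng/ml), and both were stimulated for 24 h. The 6 untreated libraries are given beside them, and the 3 IL4 libraries (100 U/ml) entered the fit only. These are cells of 1 line made in a dish, without neurons or other brain cells around them. Nothing in the labels ties the replicate libraries to separate cultures, and the p-values then measure only a spread that may be technical.

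Lipopolysaccharide, a component of the bacterial outer membrane, signals through TLR4 to NF-kB and to type I interferon. Interferon gamma signals through JAK kinases, which leads to induction of IRF1 and with it a large set of antimicrobial and antigen presentation genes, and the combination is the classical stimulus for proinflammatory microglia. TGF-beta signals through a pair of kinase receptors to SMAD2 and SMAD3, and in the brain it is needed for the resting, homeostatic state of microglia.

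The recovered reads numbered 7589049 to 10170627 in the LPS+IFNg libraries, 3715535 to 13403411 in the TGFb libraries and 2682564 to 18676181 in the untreated libraries. LPS+IFNg replicate 3 stood apart from the other 2 libraries of its group. Its root mean square log2 difference from them was 0.465 and 0.488, against 0.248 between replicates 1 and 2 and 0.201 to 0.309 between TGFb libraries. Of the 928 genes at least 2-fold higher in LPS+IFNg, it held the highest of the 3 values for 594 and the lowest for 234, with a median of 1.18 times the mean of the other 2. Values without it are therefore given beside many of the results that it moved. Summed levels of the 14 myeloid identity markers, which include Csf1r, Spi1 and Ptprc, were 37100 to 41200 in LPS+IFNg, 49900 to 52600 in TGFb and 38400 to 42100 in untreated libraries. The sum does not speak for each member. In the test described below, 9 of the 14 passed as lower in LPS+IFNg and 3 as higher (Ptprc, Aif1 and Emr1), while 2 did not pass (Csf1r and Lyz2). Of all genes tested, 30.8% were lower and 31.9% higher. The table used here held none of 12 neuron markers, but it also lacked microglial genes such as C1qa, so absence from it shows little. Of 11 embryonic stem cell markers looked for, it held Klf4 and Dnmt3l. These summed to 97.1 to 115 in LPS+IFNg, 98.2 to 111 in TGFb and 83.4 to 137 in untreated libraries. In the same order, 3 astrocyte markers, of 10, summed to 1390 to 1480, 1680 to 1900 and 1450 to 1610. For 4 oligodendrocyte markers, of 12, the sums were 183 to 202, 232 to 252 and 172 to 242. For 3 dendritic cell markers, of 10, they were 284 to 509, 285 to 332 and 196 to 275. The 3 endothelial markers in the table, of 10 looked for (Pecam1, Vwf and Egfl7, without Cdh5 or Kdr), summed to 141 to 167 in LPS+IFNg, 731 to 848 in TGFb and 211 to 283 in untreated libraries. The 2 lymphocyte markers, of 13 (Lck and Pax5, without Cd3e), summed to 180 to 256, 52.7 to 83.2 and 50.4 to 81.7. These sums do not speak for each marker either. Of the endothelial markers only Vwf passed the test, as lower in LPS+IFNg, while Egfl7 did not pass and Pecam1 was not tested. Lck passed as higher and Pax5 did not pass. Among astrocyte markers Aldh1l1 passed as higher and Aldoc as lower, and among oligodendrocyte markers only Cspg4 passed, as lower. The part of these other cells in the results was not tested, and in bulk RNA fewer cells of a type and less RNA per cell cannot be told apart.

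Values are normalized read counts, with 1 as the lowest value the table can hold. Differences are log2(value + 1) in LPS+IFNg minus TGFb, so that a positive difference is a higher level in LPS+IFNg, and a gene is called where limma's Benjamini-Hochberg adjusted p was below 0.05. Of 11138 genes tested, 6975 were called (62.6%), 3550 of them higher in LPS+IFNg (31.9%) and 3425 lower (30.8%). At least 2-fold differences were called for 928 genes higher in LPS+IFNg (8.33%) and 888 genes higher in TGFb (7.97%), so the counts on the sides were close. The sides were unlike in size. At least 16-fold differences numbered 107 in favour of LPS+IFNg and 28 in favour of TGFb, and at least 64-fold differences numbered 50 and 4. For 7392 genes (66.4%) the 3 values of 1 stimulus all lay above the 3 of the other, and 6660 of these (59.8% of the genes tested) were also called. Since so many genes differed, a list is described below by its counts and its median beside the median of 0.00 over all genes tested. The counts stand beside the 31.9% called higher and 30.8% called lower over all genes tested.

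**Figure D1:**
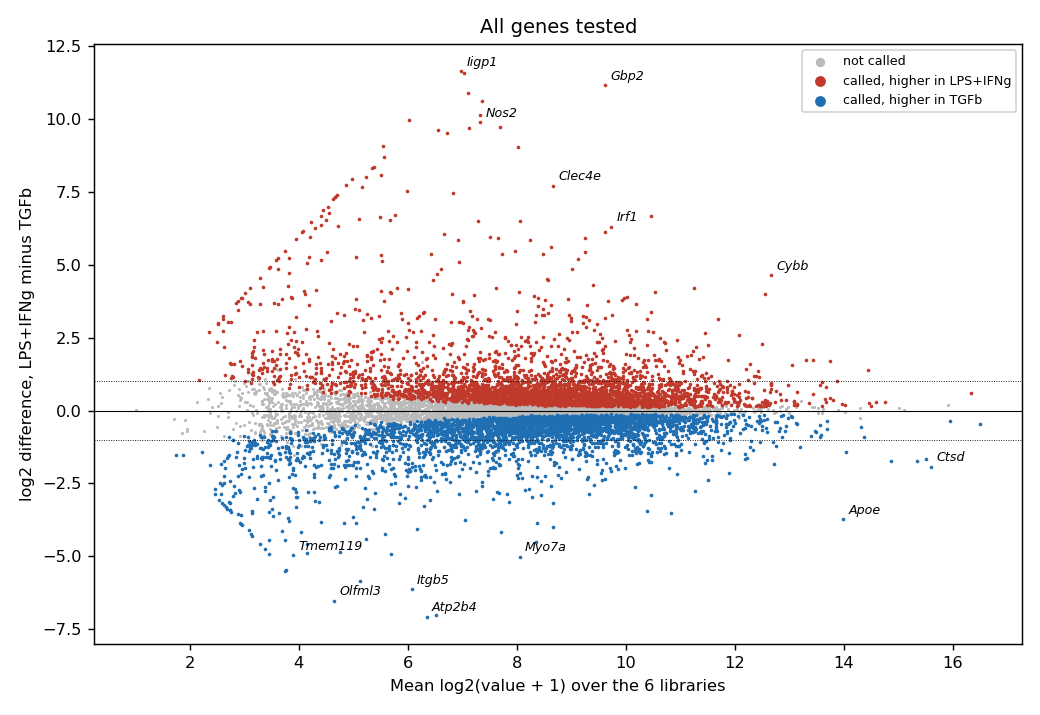
Each point is 1 tested gene, with its mean level over the 6 libraries on the x axis (log2(value + 1)) and its log2 difference, LPS+IFNg minus TGFb, on the y axis; called genes are coloured by side and dotted lines mark 2-fold. The upper arm reaches a difference of 11.64 (Iigp1), and the lower arm ends at -7.07 (Atp2b4).

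Genes of the interferon pathway itself were mostly higher in LPS+IFNg. Of 20 tested genes of interferon receptors, JAK-STAT signalling and its feedback, 18 were higher in LPS+IFNg and 2 lower, with a median difference of 1.45, or 1.04 without LPS+IFNg replicate 3. The 2 lower genes were receptor chains, Ifngr1 of the interferon gamma receptor and Ifnar1 of the type I interferon receptor. Ifngr1 stood at 284, 304 and 234 in the LPS+IFNg libraries and 338, 339 and 366 in the TGFb libraries, a difference of -0.35, and Ifnar1 differed by -0.21. Both differences were small beside that of the downstream factor Irf1. Irf1 (chr11:53770014-53778374), a transcription factor of the interferon response, was at 6780, 6530 and 9910 in the LPS+IFNg libraries, 94, 87.5 and 103 in the TGFb libraries and 66, 79.3 and 85.2 (lowest, median and highest) in the untreated libraries, an 81.5-fold ratio of means and a log2 difference of 6.31 ± 0.14 (SE, limma adjusted p = 4.94e-17). Every LPS+IFNg library of Irf1 lay far above every TGFb library, and the TGFb libraries also lay above the untreated ones.

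The feedback inhibitors of the pathway were higher too, and 2 of them leaned on LPS+IFNg replicate 3. Usp18, which silences type I interferon signalling, was at 1040, 1190 and 1070 in the LPS+IFNg libraries and 111, 120 and 110 in the TGFb libraries, with the untreated libraries at 120, 142 and 168. Socs1, an inhibitor of JAK kinases, was at 31.8, 48.1 and 181 in the LPS+IFNg libraries and 1, 1 and 1.95 in the TGFb libraries. It had 257 reads against 3, a depth-adjusted ratio of 92.5 (95% exact interval 31.3 to 452), or 69.4 (26.8 to 257) if TGFb held the most reads that values at the floor could hide. The log2 difference of Socs1 was 4.87, and 4.14 without LPS+IFNg replicate 3. Socs3, which inhibits JAK-STAT3 signalling, was at 441, 416 and 1930 in the LPS+IFNg libraries and 319, 333 and 359 in the TGFb libraries, so the groups did not overlap but were close except for replicate 3. Its difference of 1.07 shrank to 0.35 without that library, and the untreated libraries, at 136, 141 and 164, lay below both stimuli.

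Among the genes with the largest differences were the interferon-inducible GTPases, which coat and disrupt the vacuoles of intracellular pathogens. All 16 tested members were higher in LPS+IFNg, with a median of 8.20, or 9.01 with the member that had 0 reads in TGFb set at its bound. The promoters of 4 guanylate-binding protein genes and of Irf1 are printed here because these genes define the LPS+IFNg side and stand near the floor, or low, with TGFb. Each run is the 250 bases before the RefSeq start (GRCm38.p6, first start listed), 5′ to 3′ on the gene's strand. Capitals mark matches on either strand to GAAANNGAA, the core letters of the interferon-stimulated response element bound by IRF factors, or to TTCNNNGAA, the letters of the gamma-activated site.
Irf1 (chr11:53769764-53770013, plus strand): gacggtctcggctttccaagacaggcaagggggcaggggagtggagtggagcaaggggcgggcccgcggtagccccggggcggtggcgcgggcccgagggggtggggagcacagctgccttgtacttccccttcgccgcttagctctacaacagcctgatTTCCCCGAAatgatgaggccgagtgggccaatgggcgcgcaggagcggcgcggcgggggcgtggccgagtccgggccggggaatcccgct
Gbp2 (chr3:142620413-142620662, plus strand): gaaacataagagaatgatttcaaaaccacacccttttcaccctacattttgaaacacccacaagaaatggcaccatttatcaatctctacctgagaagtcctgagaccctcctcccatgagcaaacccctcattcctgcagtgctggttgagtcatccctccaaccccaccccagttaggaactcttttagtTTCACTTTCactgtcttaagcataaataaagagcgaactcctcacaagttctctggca
Gbp3 (chr3:142559794-142560043, plus strand): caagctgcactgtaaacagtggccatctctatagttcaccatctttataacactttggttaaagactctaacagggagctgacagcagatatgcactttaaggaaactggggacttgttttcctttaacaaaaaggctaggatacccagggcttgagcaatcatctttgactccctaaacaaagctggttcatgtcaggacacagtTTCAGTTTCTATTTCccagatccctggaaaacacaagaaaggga
Gbp5 (chr3:142496684-142496933, plus strand): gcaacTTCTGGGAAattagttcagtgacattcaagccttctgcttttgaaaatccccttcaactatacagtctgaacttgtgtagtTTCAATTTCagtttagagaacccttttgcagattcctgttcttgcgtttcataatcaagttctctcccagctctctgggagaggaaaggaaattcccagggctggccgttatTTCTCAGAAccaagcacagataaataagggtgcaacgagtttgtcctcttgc
Gbp7 (chr3:142530086-142530335, plus strand): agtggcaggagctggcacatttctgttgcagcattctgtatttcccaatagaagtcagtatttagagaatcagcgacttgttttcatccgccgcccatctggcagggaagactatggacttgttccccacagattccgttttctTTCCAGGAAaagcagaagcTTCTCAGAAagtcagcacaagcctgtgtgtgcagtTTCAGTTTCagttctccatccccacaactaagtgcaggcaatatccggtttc

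Irf1 carried 1 match to the gamma-activated site letters, 90 to 82 bases before the start, and none to the response element letters in this window. Gbp2 had 1 response element match at 58 to 50 bases, and Gbp3 had 2 that overlap each other, at 44 to 36 and 38 to 30 bases. Gbp5 and Gbp7 each had 1 response element match and 2 gamma-activated site matches. Promoters were found for 8497 of the 11138 tested genes (76.3%). Among these, 6.28% held the response element letters and 5.86% the gamma-activated site letters in a window of the same length. As under 80% of genes had a promoter, shares by gene group are not given. A match is a description of the letters and not a measured binding site.

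Gbp2 (chr3:142620602-142638008) was the most abundant of the printed GTPase genes, with 27800, 25000 and 76700 in the LPS+IFNg libraries, 22.1, 14.9 and 11.1 in the TGFb libraries and 9.43, 11.7 and 25.2 in the untreated ones. Its log2 difference was 11.16 ± 0.37 (SE, limma adjusted p = 9.94e-15), and 10.65 without LPS+IFNg replicate 3, where its value was the highest. The TGFb and untreated values of Gbp2 overlapped, and their difference of 0.20 did not pass the test (limma adjusted p = 0.647). Gbp3 was at 5650, 5420 and 7170 in the LPS+IFNg libraries and 7.55, 6.4 and 4.56 in the TGFb libraries, a difference of 9.74. Gbp7 was at 4920, 4660 and 6850 in the LPS+IFNg libraries and 2.9, 8.54 and 1.95 in the TGFb libraries, a difference of 10.14. Gbp5, which also helps to assemble the NLRP3 inflammasome, was at 5970, 5330 and 11800 in the LPS+IFNg libraries and 1.16, 2.13 and 1 in the TGFb libraries. It was read 24398 times with LPS+IFNg and 3 times with TGFb, a ratio of 8780 (95% exact interval 3010 to 42600), or 6590 (2570 to 24200) at the most reads the floor allows. All 4 genes thus had high values in every LPS+IFNg library. With TGFb Gbp5 lay at or near the floor, Gbp3 and Gbp7 lay under 10, and Gbp2 was low but clearly detected, with 62 reads.

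The other GTPases ranged from the floor to a measurable level with TGFb. Iigp1, an immunity-related GTPase, had 5780, 5120 and 12100 with LPS+IFNg and 1.74, 1 and 1 with TGFb, that is 24152 against 3 reads and a ratio of 8700 (95% exact interval 2980 to 42200), or 6520 (2550 to 23900) at the most reads the floor allows. Gbp6, a further guanylate-binding protein, had 6908 against 2 reads, a ratio of 3730 (95% exact interval 1030 to 30800), or 2490 (851 to 12100). Tgtp1 and Tgtp2, a near-identical pair, differed by 9.51 and 9.61. Irgm1, a regulatory member that protects host membranes, had a measurable level in all groups, with 3030, 2780 and 3240 in the LPS+IFNg libraries and 152, 147 and 149 in the TGFb libraries and 113, 127 and 168 in untreated libraries. Gvin1, a giant GTPase, was at 1910, 1770 and 1720 in the LPS+IFNg libraries and 75.5, 81.1 and 78.8 in the TGFb libraries, and at 106, 121 and 132 untreated, so TGFb was the lowest of the 3 states. Serpina3f and Serpina3g, serine protease inhibitors that are no GTPases, ranked among these genes, with differences of 10.88 and 10.63. Serpina3f was at 4460, 4010 and 11900 in the LPS+IFNg libraries and 4.06, 2.13 and 1 in the TGFb libraries, and its difference was 10.38 without LPS+IFNg replicate 3. The Gbp, Tgtp and Serpina3 genes each form a family of close copies, and how the reads were divided between copies is not given in the sources used here.

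**Figure D2:**
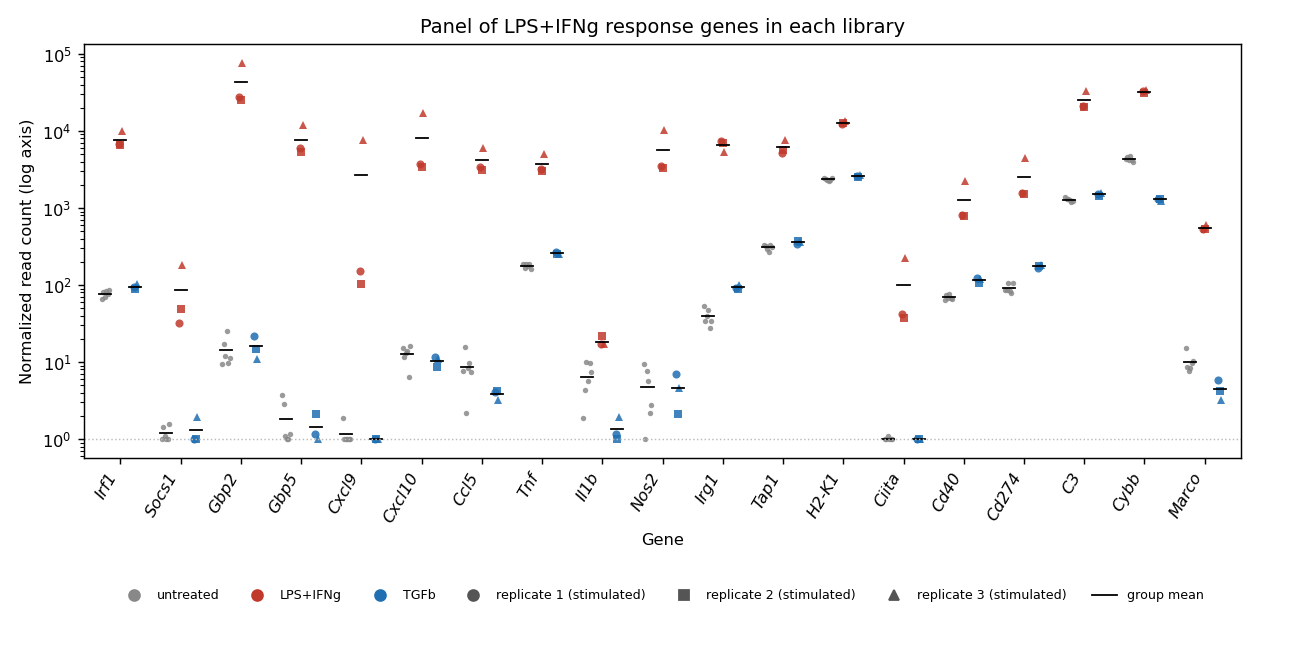
Normalized read counts (log axis) of genes of the LPS+IFNg response panel, with 1 point per library, a black bar at each group mean and a dotted line at the lowest value of 1. For every gene shown the 3 LPS+IFNg libraries lie above the 3 TGFb libraries, and replicate 3 (triangle) sits well above the other 2 for Cxcl9 (150, 103 and 7680), Ciita and Socs1.

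The antiviral genes followed. All 32 tested interferon-stimulated antiviral genes were higher in LPS+IFNg, with a median of 4.04, or 4.71 with 4 members that had 0 reads in a group set at their bounds. Parp14, an ADP-ribosyltransferase that modulates STAT signalling, was at 4880, 4780 and 4560 in the LPS+IFNg libraries and 76.1, 83.2 and 74.2 in the TGFb libraries, with untreated at 39.2, 50 and 61.7, a difference of 5.91 ± 0.14 (SE, limma adjusted p = 8.74e-17). Ifit2, which restrains translation of viral RNA, was at 3530, 3580 and 5060 in the LPS+IFNg libraries and 89.4, 98.2 and 87.9 in the TGFb libraries, with untreated at 115, 135 and 151. Oasl1 was at 2900, 3300 and 4080 in the LPS+IFNg libraries and 102, 83.2 and 91.1 in the TGFb libraries, with untreated at 134, 146 and 162. Ifit2 and Oasl1 were lower in TGFb than in untreated cells, with differences of -0.52 and -0.67, so for them the direct contrast was larger than the change from untreated cells (4.91 and 4.52). Comparisons with untreated cells share the 6 untreated libraries and are set side by side here and below for that reason.

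Antigen presentation genes were looked at by class. Of 22 tested class I genes, 19 were higher in LPS+IFNg and 3 lower (median 2.32). Tap1, a subunit of the peptide transporter of the endoplasmic reticulum, was at 5180, 5690 and 7680 in the LPS+IFNg libraries and 342, 376 and 363 in the TGFb libraries, a difference of 4.08 ± 0.11 (SE, limma adjusted p = 4.24e-16). Tapbp (tapasin, the loading chaperone) differed by 3.13, Psme1 (a proteasome activator subunit) by 2.45, B2m (the light chain) by 1.71 and H2-K1 (a heavy chain) by 2.30. H2-K1 was already high without interferon, with 12400, 12800 and 13400 in the LPS+IFNg libraries and 2610, 2550 and 2660 in the TGFb libraries and 2270, 2330 and 2430 untreated, and its reads may be shared with other H2 genes of similar sequence. The 3 lower members were the general chaperones of the endoplasmic reticulum in the list, Calr, Pdia3 and Canx. Calr was at 8610, 8440 and 9420 in the LPS+IFNg libraries and 16600, 16300 and 16600 in the TGFb libraries, a difference of -0.90, and Pdia3 differed by -0.47. Canx differed by -0.13, a call that was lost without LPS+IFNg replicate 2 (-0.10), TGFb replicate 2 (-0.11) or TGFb replicate 3 (-0.13).

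Of 9 tested class II genes, 5 were higher and 1 lower (median 0.90, or 0.65 without LPS+IFNg replicate 3). The tested genes did not include the H2-A and H2-E chains that hold the peptide. H2-Aa was too low to be tested. Pooled over the libraries of each group, it had 35 reads with LPS+IFNg and 0 with TGFb, at least 12.6-fold higher in LPS+IFNg. H2-Ab1 and H2-Eb1 were not analysed here. Cd74, the invariant chain, was at 1650, 1790 and 4090 in the LPS+IFNg libraries and 49.9, 51.2 and 63.1 in the TGFb libraries, with untreated between them at 193, 223 and 257. Its direct difference of 5.37 ± 0.22 (SE, limma adjusted p = 1.6e-13) was made of opposite moves from untreated cells, 3.35 with LPS+IFNg and -2.02 with TGFb. Ciita, the master regulator of class II genes, was at 41.8, 37 and 225 in the LPS+IFNg libraries and 1, 1 and 1 in the TGFb libraries. Pooled over the libraries of each group, it had 296 reads against 0, at least 107-fold higher in LPS+IFNg. That bound leans on LPS+IFNg replicate 3, and the log2 difference went from 5.16 to 4.33 without it. Ctss, the cathepsin that trims the invariant chain, was higher in LPS+IFNg by 0.90, and above untreated in both states (1.70 and 0.81). Rfxank, a subunit of the factor that recruits CIITA, was the lower member, at 242, 197 and 306 in the LPS+IFNg libraries and 349, 333 and 338 in the TGFb libraries and a difference of -0.48. Without LPS+IFNg replicate 2 or without replicate 3, 2 class II genes were called lower.

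Of the secreted signals, 10 of 11 tested chemokine genes were higher in LPS+IFNg and none lower (median 5.48, or 5.04 without LPS+IFNg replicate 3). Ccl5, which attracts T cells and monocytes, was at 3450, 3100 and 6020 in the LPS+IFNg libraries and 4.06, 4.27 and 3.25 in the TGFb libraries, a difference of 9.69 ± 0.41 (SE, limma adjusted p = 2.59e-13). Cxcl10, an interferon-induced ligand of CXCR3, was at 3710, 3360 and 16900 in the LPS+IFNg libraries and 11.6, 8.54 and 11.1 in the TGFb libraries, a difference of 9.04, and 8.29 without LPS+IFNg replicate 3. Cxcl9, another ligand of CXCR3, was at 150, 103 and 7680 in the LPS+IFNg libraries and 1, 1 and 1 in the TGFb libraries. It had 7115 reads against 0, at least 2560-fold higher in LPS+IFNg, but the size rested on 1 library. The Cxcl9 difference of 7.95 was 5.97 without replicate 3, 8.80 without replicate 1 and 9.07 without replicate 2, and the mean fell from 2640 to 126 without replicate 3. The macrophage inflammatory proteins started from a higher base. Ccl3 was at 3870, 3470 and 4750 in the LPS+IFNg libraries and 284, 256 and 268 in the TGFb libraries, with untreated at 443, 466 and 536, and Ccl4 was at 1230, 1220 and 3070 in the LPS+IFNg libraries and 32.5, 40.6 and 36.4 in the TGFb libraries, with untreated at 71.7, 76.9 and 98.1. Both were lower in TGFb than in untreated cells, with differences of -0.83 for Ccl3 and -1.12 for Ccl4.

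Among the cytokines, 11 of 13 tested genes were higher in LPS+IFNg and none lower (median 2.49). Without LPS+IFNg replicate 3 the median was 2.25 and 1 gene was called lower. Tnf was at 3200, 2980 and 5050 in the LPS+IFNg libraries and 272, 256 and 250 in the TGFb libraries, with untreated at 159, 180 and 187, a difference of 3.81 ± 0.14 (SE, limma adjusted p = 2.35e-14). Il15, a growth factor for lymphocytes, was at 268, 229 and 265 in the LPS+IFNg libraries and 22.1, 21.3 and 26.7 in the TGFb libraries, and at 28.3, 33.3 and 39.8 untreated. Csf1, the growth factor that microglia themselves depend on, was at 4950, 4930 and 3170 in the LPS+IFNg libraries and 1200, 1140 and 1160 in the TGFb libraries, while TGFb differed from the untreated level (1100, 1140 and 1190) by 0.03 on the log2 scale (limma adjusted p = 0.839). Il1b was low throughout, at 17, 21.5 and 16.9 in the LPS+IFNg libraries and 1.16, 1 and 1.95 in the TGFb libraries and 1.89, 6.51 and 9.93 untreated. The panel genes Il6 and Il12b were not analysed here.

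Genes that sense LPS and pass on its signal were mixed. Of 17 tested genes of LPS recognition and signalling, 7 were higher and 4 lower in LPS+IFNg. Of all genes tested, 31.9% were higher and 30.8% lower. The list median was 0.13 (0.07 without LPS+IFNg replicate 3). The largest difference on that list was Irg1, described below with the enzymes. Ticam2, the adaptor that links TLR4 to interferon production, was higher, at 332, 307 and 444 in the LPS+IFNg libraries and 61.5, 47 and 46.9 in the TGFb libraries. Irak3, a brake on the same receptors, was at 165, 158 and 132 in the LPS+IFNg libraries and 33.7, 32 and 31.2 in the TGFb libraries, a difference of 2.19. Cd180, a TLR4-like receptor, was lower at 488, 492 and 386 in the LPS+IFNg libraries and 975, 986 and 961 in the TGFb libraries, a difference of -1.10, and Tirap, a bridging adaptor of MYD88, was lower with a difference of -0.75. Map3k7 (TAK1), the kinase that passes the signal on, was also lower, with a difference of -0.25.

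Among NF-kB genes, 19 of 20 tested subunits and feedback regulators were higher in LPS+IFNg and none lower (median 1.74, or 1.48 without LPS+IFNg replicate 3). Nfkbia, the inhibitor IkB alpha that NF-kB itself induces, was at 3670, 3530 and 4980 in the LPS+IFNg libraries and 474, 425 and 461 in the TGFb libraries, with untreated at 263, 313 and 330, a difference of 3.15 ± 0.10 (SE, limma adjusted p = 9.8e-15). Nfkbie, a related inhibitor, differed by 2.48, and Ikbke, an IkB kinase family member that activates interferon regulatory factors, by 2.45. The Nfkbia promoter is printed because this gene is the standard readout of the pathway, with capitals for matches to GGNNNTTCC, letters of the NF-kB site, on either strand.
Nfkbia (chr12:55492648-55492897, minus strand): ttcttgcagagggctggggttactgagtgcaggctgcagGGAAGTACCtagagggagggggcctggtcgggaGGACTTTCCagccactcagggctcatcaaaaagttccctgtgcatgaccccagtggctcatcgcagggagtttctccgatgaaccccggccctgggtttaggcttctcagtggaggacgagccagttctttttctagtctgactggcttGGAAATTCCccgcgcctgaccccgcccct
It held 3 such matches, at 211 to 203, 178 to 170 and 29 to 21 bases before the start. The letters are loose, and 19.1% of all promoters found for tested genes held at least 1 match. They also matched in the Gbp5 promoter above, at 77 to 69 bases. The Nfkbia promoter in turn held a match to the response element letters, at 53 to 45 bases. Neither of these matches is in capitals.

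Enzymes that make small effector molecules went both ways. Of 15 tested genes of nitric oxide, arginine, prostaglandin and itaconate metabolism, 9 were higher and 3 lower in LPS+IFNg (median 0.44, or 0.47 without Arg1). Without LPS+IFNg replicate 3, 7 were higher and 3 lower (median 0.34). Nos2 (chr11:78920787-78960254), the inducible nitric oxide synthase, was at 3560, 3310 and 10300 in the LPS+IFNg libraries and 6.97, 2.13 and 4.56 in the TGFb libraries, with untreated at 1, 4.17 and 9.43, a difference of 9.90 ± 0.56 (SE, limma adjusted p = 2.1e-11), or 9.37 without LPS+IFNg replicate 3. Irg1, which makes itaconate, was at 7430, 7020 and 5410 in the LPS+IFNg libraries and 92.3, 89.6 and 99.6 in the TGFb libraries, with untreated at 28, 37.1 and 52.8, a difference of 6.11 ± 0.19 (SE, limma adjusted p = 2.3e-15). TGFb and untreated levels overlapped for Nos2, whereas for Irg1 TGFb lay above untreated by 1.26. The cyclooxygenases were split. Ptgs2, the inducible form, was higher in LPS+IFNg, at 288, 242 and 1510 in the LPS+IFNg libraries and 33.1, 40.6 and 29.9 in the TGFb libraries and a difference of 3.75, or 2.91 without replicate 3. Ptgs1, the constitutive form, was lower at 8.52, 7.74 and 5.65 in the LPS+IFNg libraries and 174, 188 and 159 in the TGFb libraries, with untreated between at 37.7, 59.2 and 79.7, a difference of -4.41 ± 0.23 (SE, limma adjusted p = 6.73e-12). Alox5ap, which presents arachidonic acid to 5-lipoxygenase, was lower too, at 1380, 1300 and 1550 in the LPS+IFNg libraries and 3780, 3890 and 3590 in the TGFb libraries, and so was Ptges, a prostaglandin E synthase, by a difference of -0.76. The Ptges call was lost without LPS+IFNg replicate 2 (-0.68) or TGFb replicate 2 (-0.69). Arg1, the arginase that competes with NOS2 for arginine, had 1 read with LPS+IFNg and 0 with TGFb, so no fold is given, while its mean in the IL4 libraries was 72.2 ± 17 (SD, n = 3).

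On the cell surface, 8 of 13 tested co-stimulatory and checkpoint genes were higher in LPS+IFNg and 3 lower (median 1.36, or 1.10 without LPS+IFNg replicate 3). Icam1, an adhesion ligand for leukocyte integrins, was at 7630, 7090 and 21900 in the LPS+IFNg libraries and 567, 606 and 531 in the TGFb libraries, a difference of 4.22 and 3.69 without LPS+IFNg replicate 3. Cd40, the receptor through which T cells activate microglia, was at 810, 793 and 2220 in the LPS+IFNg libraries and 125, 105 and 118 in the TGFb libraries, a difference of 3.27 and 2.78 without that library. Cd274 (PD-L1), an inhibitory ligand, was at 1580, 1500 and 4420 in the LPS+IFNg libraries and 168, 179 and 184 in the TGFb libraries, a difference of 3.62 and 3.11 without it. In all 3 genes replicate 3 was the highest, and the other 2 libraries still lay above every TGFb library. The checkpoint genes on the other side were Havcr2 (TIM-3), at 146, 159 and 151 in the LPS+IFNg libraries and 457, 519 and 474 in the TGFb libraries, Cd276 (B7-H3), with a difference of -1.10, and Sirpa, the receptor for the CD47 signal, with a difference of -0.64. Lgals9, a ligand of TIM-3, was higher in LPS+IFNg, by 1.71.

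Scavenger, phagocytic and complement genes split almost evenly, with 11 higher and 12 lower of 26 tested. Their median was 0.32, and -0.08 without LPS+IFNg replicate 3. Clec4e (Mincle), a receptor for mycobacterial glycolipid, was at 7750, 5890 and 4520 in the LPS+IFNg libraries and 33.7, 23.5 and 25.4 in the TGFb libraries, with untreated at 50.7, 58.7 and 79.2, a difference of 7.71 ± 0.19 (SE, limma adjusted p = 1.81e-16). Marco, a scavenger receptor for bacteria, was at 534, 540 and 597 in the LPS+IFNg libraries and 5.81, 4.27 and 3.25 in the TGFb libraries, a difference of 6.71 ± 0.25 (SE, limma adjusted p = 5.01e-14). C3, the central complement component, was at 21000, 20300 and 33400 in the LPS+IFNg libraries and 1510, 1440 and 1550 in the TGFb libraries, a difference of 4.01. C1qb, a subunit of the complement initiator C1q, was at 154, 175 and 724 in the LPS+IFNg libraries and 6.97, 8.54 and 5.21 in the TGFb libraries, a difference of 5.12, or 4.41 without LPS+IFNg replicate 3. Cfp (properdin), which stabilises the complement convertase, was at 324, 404 and 400 in the LPS+IFNg libraries and 45.9, 57.6 and 49.5 in the TGFb libraries, with untreated at 509, 558 and 617. The Cfp difference of 2.86 lay on the TGFb side, -3.44 from untreated against -0.58 for LPS+IFNg. Mrc1, the mannose receptor, was lower at 1300, 1200 and 1180 in the LPS+IFNg libraries and 2630, 2830 and 2740 in the TGFb libraries, and both stimuli lay below the untreated 4520, 4810 and 5270. Other lower members were C3ar1, the receptor of a C3 fragment (-1.43), Scarb2, a lysosomal receptor (-0.98), and Cd36, a lipid scavenger (-0.68).

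Cell death and inflammasome genes were called higher for 15 of 23 and lower for 2 (median 0.43, or 0.26 without LPS+IFNg replicate 3). Casp4, which binds intracellular LPS, was at 1020, 907 and 1320 in the LPS+IFNg libraries and 69.1, 55.5 and 66.4 in the TGFb libraries, a difference of 4.06 ± 0.14 (SE, limma adjusted p = 1.34e-14). Mlkl, the pore former of necroptosis, differed by 2.62, and Gsdmd, the pore former of pyroptosis, by 1.66. The lower members were Bcl2l1, an inhibitor of apoptosis (-0.37), and Tnfrsf1a, the main TNF receptor (-0.40). Tnfrsf1a was at 521, 475 and 908 in the LPS+IFNg libraries and 808, 817 and 788 in the TGFb libraries, so its groups overlapped, and its call was lost when any of LPS+IFNg replicate 1 (-0.29), LPS+IFNg replicate 2 (-0.23), TGFb replicate 1 (-0.40) or TGFb replicate 2 (-0.39) was left out. Without replicate 3 its difference was -0.69.

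On the other side of the contrast stands the TGF-beta pathway. Of 17 tested receptors, SMADs and ligands, 4 were higher in LPS+IFNg and 9 lower (median -0.55). Tgfbr2, the receptor that binds the ligand, was at 305, 306 and 370 in the LPS+IFNg libraries and 798, 770 and 779 in the TGFb libraries, with untreated between them at 513, 534 and 573, a difference of -1.26 ± 0.08 (SE, limma adjusted p = 1.29e-10). Tgfbr1, the kinase it recruits, was at 335, 297 and 318 in the LPS+IFNg libraries and 730, 711 and 720 in the TGFb libraries, with untreated between at 413, 458 and 492, a difference of -1.18 ± 0.07 (SE, limma adjusted p = 9.61e-11). Each receptor thus moved in opposite directions from untreated cells, -0.72 and 0.54 for Tgfbr2 and -0.52 and 0.67 for Tgfbr1 (LPS+IFNg first). Itgav, the integrin chain that releases TGF-beta from its latent complex, was at 681, 708 and 1230 in the LPS+IFNg libraries and 2300, 2440 and 2410 in the TGFb libraries, a difference of -1.50. Tgfb1, the ligand itself, was lower in LPS+IFNg by a difference of -0.46. The SMAD transducers did not follow the receptors. Smad4, the shared partner, was higher in LPS+IFNg (0.46), as was Smad2 (0.26), and Smad3, at 129, 150 and 145 in the LPS+IFNg libraries and 142, 120 and 126 in the TGFb libraries, had a difference of 0.13 that did not pass the test (limma adjusted p = 0.379). Bmpr1a, a receptor of the related BMP ligands, was higher by 0.35.

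Of 24 tested feedback and direct target genes of TGF-beta, 7 were higher in LPS+IFNg and 12 lower (median -0.57). Skil (chr3:31095058-31122577), a repressor of SMAD complexes that TGF-beta induces, was at 120, 121 and 108 in the LPS+IFNg libraries and 761, 770 and 747 in the TGFb libraries, with untreated at 25.2, 33.7 and 43, a difference of -2.69 ± 0.17 (SE, limma adjusted p = 1.29e-10). Its close relative Ski was at 346, 334 and 383 in the LPS+IFNg libraries and 1540, 1550 and 1580 in the TGFb libraries, with untreated at 395, 538 and 568, a difference of -2.13 ± 0.11 (SE, limma adjusted p = 7.56e-12). Smad7, the inhibitory SMAD that blocks the receptor, was at 25.6, 39.5 and 49.7 in the LPS+IFNg libraries and 211, 198 and 213 in the TGFb libraries, with untreated at 24.3, 28.8 and 35.8, a difference of -2.46 ± 0.23 (SE, limma adjusted p = 3.24e-08). For Ski and Smad7 the TGFb libraries alone stood above the rest. Skil was above untreated in both states, by 1.78 with LPS+IFNg and 4.47 with TGFb.

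Other targets on the list differed in both directions. Id3, an inhibitor of helix-loop-helix factors, was higher in LPS+IFNg, at 130, 138 and 181 in the LPS+IFNg libraries and 33.1, 47 and 50.8 in the TGFb libraries, and untreated cells had 1, 5.71 and 10.8. Its relative Id2 went the other way, at 260, 207 and 717 in the LPS+IFNg libraries and 1090, 1170 and 1080 in the TGFb libraries, a difference of -1.72 and -2.26 without LPS+IFNg replicate 3. Smurf1, a ubiquitin ligase for SMADs, was higher in LPS+IFNg by 1.26, and the corepressors Tgif1 and Tgif2 by 0.74 and 1.14. Klf10, an early response gene of TGF-beta, was at 305, 291 and 473 in the LPS+IFNg libraries and 262, 273 and 266 in the TGFb libraries. Its difference of 0.38 was called, and lost the call without LPS+IFNg replicate 3 (0.16), TGFb replicate 1 (0.36) or TGFb replicate 3 (0.38). Pmepa1, Ldlrad4 and Tgfbi of the panel were not analysed here.

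**Figure D3:**
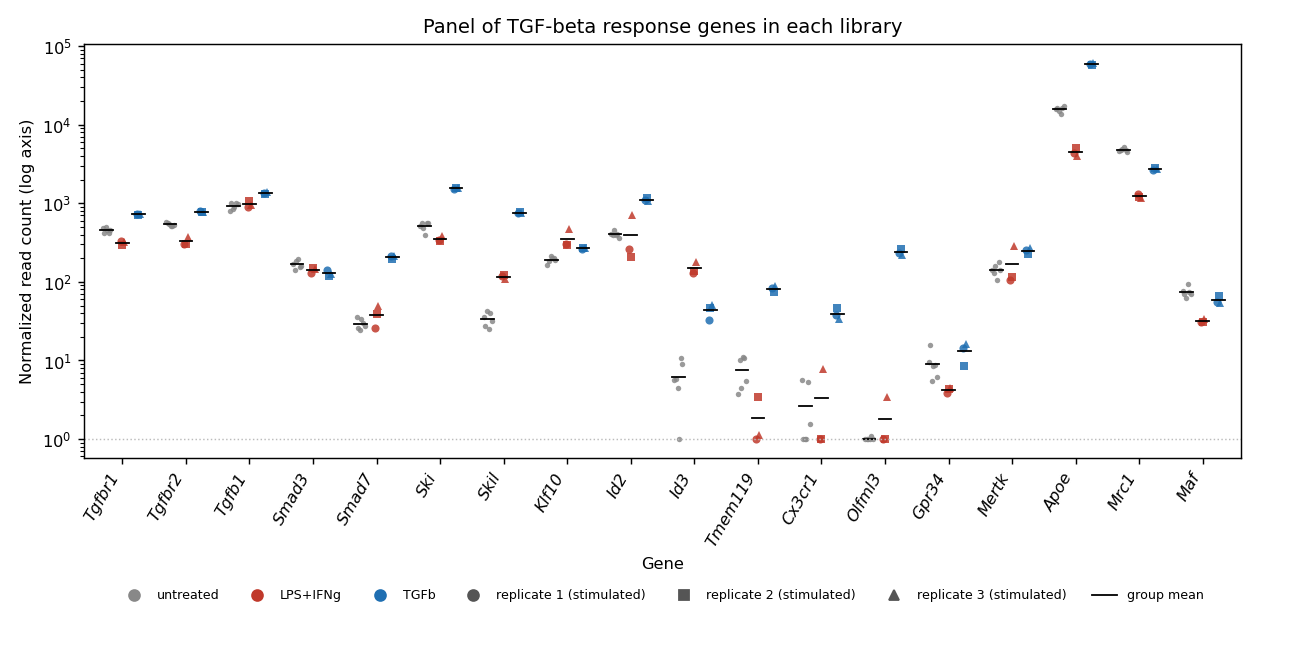
Normalized read counts (log axis) of genes of the TGF-beta response panel in every library, with a black bar at each group mean and a dotted line at the lowest value of 1. Smad7, Ski, Tmem119, Olfml3 and Apoe are highest in the TGFb libraries, Skil is above untreated with both stimuli, and the Smad3 difference of 0.13 did not pass the test.

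The genes with the most negative differences in the table were largely from outside the receptor pathway. Atp2b4 (chr1:133699457-133801041), a calcium pump of the plasma membrane, was at 10.1, 8.6 and 2.26 in the LPS+IFNg libraries and 923, 948 and 954 in the TGFb libraries, with untreated at 129, 150 and 159, a difference of -7.07 ± 0.28 (SE, limma adjusted p = 1.36e-13). Hspb7 (chr4:141420779-141425311), a small heat shock protein, was at 10.1, 6.02 and 5.65 in the LPS+IFNg libraries and 996, 1180 and 945 in the TGFb libraries, with untreated at 101, 110 and 135, a difference of -7.01 ± 0.18 (SE, limma adjusted p = 2.62e-16). Itgb5 (chr16:33829665-33949338), the integrin chain that pairs with the product of Itgav, was at 11.6, 5.16 and 5.65 in the LPS+IFNg libraries and 552, 572 and 562 in the TGFb libraries, with untreated at 11.2, 21.8 and 28.3, a difference of -6.13 ± 0.34 (SE, limma adjusted p = 1.73e-11). In all 3 genes each TGFb library was far above every LPS+IFNg library, while untreated libraries lay between the stimuli for Atp2b4 and Hspb7 and overlapped the LPS+IFNg libraries for Itgb5. Myo7a, an unconventional myosin, was at 45.7, 52.4 and 39.5 in the LPS+IFNg libraries and 1520, 1510 and 1510 in the TGFb libraries, with untreated at 66.2, 81.8 and 89.1. Cyp4f18, a cytochrome P450 that inactivates leukotriene B4, was at 3.87, 3.44 and 3.39 in the LPS+IFNg libraries and 256, 284 and 247 in the TGFb libraries, with untreated at 5.39, 6.65 and 8.41. Duoxa1, a maturation factor of dual oxidase, was at 1, 4.3 and 2.26 in the LPS+IFNg libraries and 106, 96 and 85.9 in the TGFb libraries, and Hdac9, a class IIa histone deacetylase, at 6.2, 10.3 and 9.03 in the LPS+IFNg libraries and 268, 307 and 273 in the TGFb libraries. Ipcef1 had 0 reads against 324 and was at least 100-fold higher in TGFb, and Agt (angiotensinogen) had 0 against 206 and was at least 63.6-fold higher.

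Homeostatic microglia genes lay mostly on the TGFb side, with 18 of 22 tested members lower in LPS+IFNg and 1 higher (median -1.21). Tmem119 (chr5:113793729-113800516), a surface marker of resident microglia, was at 1, 3.44 and 1.13 in the LPS+IFNg libraries and 83, 74.7 and 89.2 in the TGFb libraries, with untreated at 3.77, 7.77 and 11.2, a difference of -4.96 ± 0.43 (SE, limma adjusted p = 8.95e-09). Olfml3, a secreted protein enriched in microglia, was at 1, 1 and 3.39 in the LPS+IFNg libraries and 235, 263 and 221 in the TGFb libraries, with untreated at 1, 1 and 1.08. It had 3 reads against 867, a ratio in favour of TGFb of 268 (95% exact interval 91.3 to 1300), or 161 (68.5 to 496) at the most reads the floor allows. Olfml3 was at or near the floor in the LPS+IFNg and untreated libraries alike. Cx3cr1, the fractalkine receptor, was low in all states, at 1, 1 and 7.9 in the LPS+IFNg libraries and 37.7, 47 and 33.8 in the TGFb libraries and 1, 1.28 and 5.66 untreated. Its difference of -3.61 was -4.33 without LPS+IFNg replicate 3, which alone held reads above the floor.

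More abundant members of the list showed smaller differences in the same direction. Trem2, a lipid-sensing receptor, was at 937, 971 and 1210 in the LPS+IFNg libraries and 2890, 2980 and 2600 in the TGFb libraries, with untreated between at 1610, 1710 and 1770, a difference of -1.45 ± 0.08 (SE, limma adjusted p = 9.02e-12). Golm1 differed by -1.46, Gpr34 by -1.39 and Mef2c, a transcription factor of the resting state, by -1.56. Mef2c was at 381, 442 and 488 untreated and 424, 433 and 402 with TGFb, so its difference came from the LPS+IFNg side. Mertk, a receptor for apoptotic cells, was at 105, 116 and 288 in the LPS+IFNg libraries and 254, 228 and 269 in the TGFb libraries, and its groups overlapped because of LPS+IFNg replicate 3. Its difference of -0.71 was -1.17 without that library, and the call was lost when LPS+IFNg replicate 1 (-0.45), LPS+IFNg replicate 2 (-0.52), TGFb replicate 1 (-0.70) or TGFb replicate 3 (-0.66) was left out. The 1 member higher in LPS+IFNg was C1qb, given above, and 2 were higher without LPS+IFNg replicate 1. P2ry12, Sall1, Siglech and Fcrls were not analysed here.

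Lipid handling genes were lower in LPS+IFNg for 15 of 22 tested and higher for 2 (median -0.57). Apoe, the apolipoprotein that carries most lipid within the brain, was at 4410, 5070 and 4020 in the LPS+IFNg libraries and 59800, 56900 and 61300 in the TGFb libraries, with untreated between at 13800, 16000 and 17400, a 13.2-fold ratio of means in favour of TGFb and a log2 difference of -3.73 ± 0.10 (SE, limma adjusted p = 2.62e-16). Apoe moved from untreated by -1.81 with LPS+IFNg and by 1.92 with TGFb, nearly the same distance in opposite directions. Apoc1, its neighbour in the genome, had 1 read against 338, a ratio in favour of TGFb of 313 (95% exact interval 55.8 to 12400), or 104 (35.4 to 508). Scd2, a fatty acid desaturase, was at 16700, 17200 and 15500 in the LPS+IFNg libraries and 53000, 55500 and 53800 in the TGFb libraries, a difference of -1.72, and Plin2, a lipid droplet coat protein, differed by -1.67. The higher members were Npc2, which exports cholesterol from lysosomes (0.52), and Fabp5, a fatty acid carrier (0.15). The Fabp5 call was lost without LPS+IFNg replicate 2, LPS+IFNg replicate 3, TGFb replicate 1 or TGFb replicate 3, with differences of 0.16, 0.12, 0.12 and 0.15, which left 1 member called higher.

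Disease-associated microglia genes, a set described in neurodegeneration models, were lower for 15 of 24 and higher for 6 (median -0.46). Without LPS+IFNg replicate 3, 17 were lower and 5 higher (median -0.59). The set shares members with lists above, among them Apoe, Trem2, B2m, Csf1, Lpl, Fabp5, Itgax and Clec7a. It also shares members with the lysosome list below, among them Ctsd, Ctsz and Cd68. Cd9, a tetraspanin, was at 1930, 1860 and 1710 in the LPS+IFNg libraries and 7940, 8460 and 7650 in the TGFb libraries, a difference of -2.13 ± 0.05 (SE, limma adjusted p = 2.36e-16), and Timp2, an inhibitor of matrix proteases, differed by -1.99. Cst7 (cystatin F) was higher in LPS+IFNg, at 2570, 2460 and 3160 there and 383, 424 and 445 in untreated libraries, a difference from TGFb of 2.76 ± 0.09 (SE, limma adjusted p = 6.42e-15). Clec7a (dectin-1) was higher too (1.39), with LPS+IFNg at 51.9, 51.6 and 77.9 and TGFb at 26.1, 23.5 and 17.6, and the untreated 64.9, 72 and 84.1 close to the former. Lysosome genes and cathepsins were lower for 18 of 32 and higher for 6 (median -0.22). Without LPS+IFNg replicate 3, 23 were lower and 5 higher (median -0.28). Ctsd, the main aspartic protease of lysosomes, was at 24600, 24200 and 28300 in the LPS+IFNg libraries and 97300, 100000 and 94800 in the TGFb libraries, with untreated at 30300, 31300 and 33000, a difference of -1.93 ± 0.07 (SE, limma adjusted p = 1.38e-14). Ctsf differed by -1.76 and Laptm5, a lysosomal membrane protein, by -1.35, while Ctsz was higher in LPS+IFNg by 0.81.

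**Figure D4:**
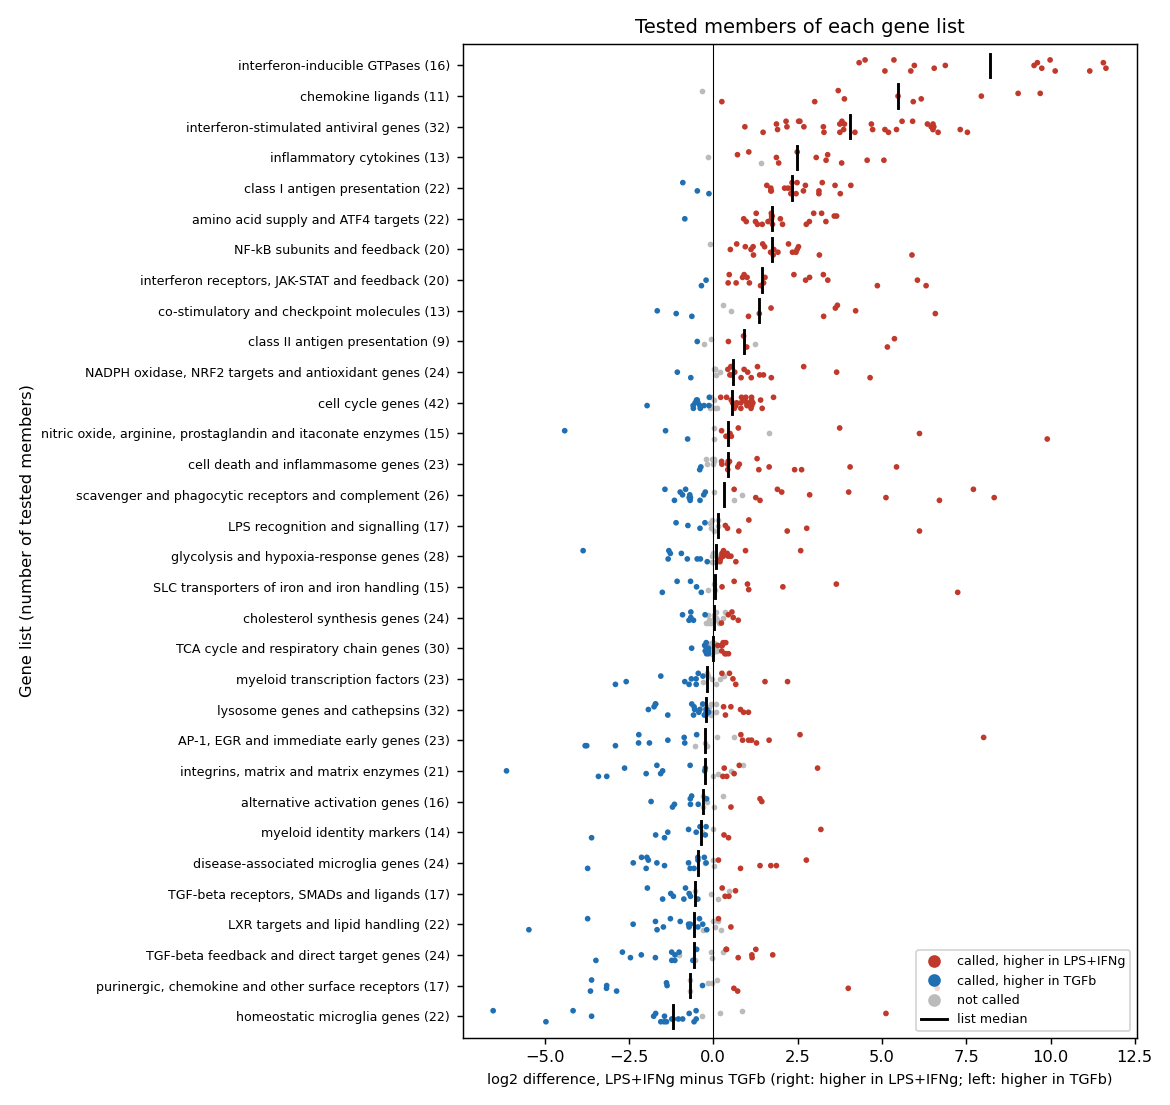
Each row is a gene list, each point a tested member at its log2 difference (right: higher in LPS+IFNg; left: higher in TGFb), coloured where called, and black ticks are list medians. The medians run from -1.21 (homeostatic microglia genes) to 8.20 (interferon-inducible GTPases), and most lists hold called members on both sides.

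Adhesion genes differed in both directions. Of 21 tested integrin and matrix genes, 6 were higher in LPS+IFNg and 11 lower (median -0.24). Itga5, the fibronectin receptor chain, was at 1690, 1730 and 1940 in the LPS+IFNg libraries and 5390, 5470 and 4920 in the TGFb libraries, a difference of -1.56 ± 0.06 (SE, limma adjusted p = 5.3e-14), alongside Itgav and Itgb5 above. Itgb7, which directs leukocytes to mucosal ligands, was higher in LPS+IFNg, at 1860, 1960 and 1770 in the LPS+IFNg libraries and 226, 194 and 234 in the TGFb libraries, with untreated between at 425, 494 and 542, a difference of 3.09 ± 0.08 (SE, limma adjusted p = 4.87e-16). Its partner chain Itga4 was higher by 0.40. Mmp12, macrophage elastase, was at 10.1, 8.6 and 9.03 in the LPS+IFNg libraries and 65.6, 55.5 and 66.4 in the TGFb libraries, with untreated at 77.6, 86.5 and 96.4, a difference of -2.63, and Adam17, which sheds TNF, was higher in LPS+IFNg by 0.77.

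Of 17 tested purinergic, chemokine and other surface receptors, 4 were higher and 8 lower. The median was -0.69, and it moved to -0.40, -0.28 or -0.36 without LPS+IFNg replicate 2, LPS+IFNg replicate 3 or TGFb replicate 1. Without TGFb replicate 2 it was -0.79. P2ry6, a UDP receptor that triggers phagocytosis, was at 7.75, 5.16 and 12.4 in the LPS+IFNg libraries and 125, 102 and 107 in the TGFb libraries, with untreated at 7.19, 14.7 and 17, a difference of -3.64 ± 0.33 (SE, limma adjusted p = 1.46e-08). Cxcr4, the receptor of CXCL12, was at 127, 111 and 172 in the LPS+IFNg libraries and 1200, 1240 and 1180 in the TGFb libraries, with untreated between at 291, 344 and 398, a difference of -3.16 ± 0.12 (SE, limma adjusted p = 1.03e-13). Gpr183, an oxysterol receptor, had 0 reads against 61 and was at least 18.8-fold higher in TGFb. Ccrl2, a chemerin-binding receptor, was higher in LPS+IFNg, at 428, 405 and 515 in the LPS+IFNg libraries and 5.81, 2.13 and 3.25 in the TGFb libraries, a difference of 6.64. Ptafr, the receptor of platelet activating factor, was higher too, at 54.2, 43.8 and 135 in the LPS+IFNg libraries and 1, 6.4 and 4.56 in the TGFb libraries, and P2rx4, an ATP-gated channel, by 0.61.

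Transcription factors divided as well. Of 23 tested myeloid factors, 6 were higher and 10 lower in LPS+IFNg (median -0.18), beside 31.9% and 30.8% of all genes tested. Cebpa, a lineage factor of the myeloid series, was at 188, 206 and 107 in the LPS+IFNg libraries and 993, 920 and 997 in the TGFb libraries, with untreated between at 330, 358 and 394, a difference of -2.58 ± 0.16 (SE, limma adjusted p = 6.9e-11). Maf was at 31, 30.9 and 33.9 in the LPS+IFNg libraries and 55.7, 66.2 and 53.4 in the TGFb libraries, with untreated at 61.8, 72.2 and 95.3, so it was below untreated with both stimuli. Ets2 was higher in LPS+IFNg by 2.20, Irf5 by 0.67 and Zeb2 by 0.48. Of 23 tested AP-1, EGR and immediate early genes, 8 were higher and 10 lower, beside the same shares of all genes. Their median was -0.24, and -0.49 without TGFb replicate 2 or -0.36 without LPS+IFNg replicate 2. It was -0.20 without TGFb replicate 1 and -0.17 without TGFb replicate 3. Fos was at 17.8, 31.8 and 74.5 in the LPS+IFNg libraries and 488, 504 and 462 in the TGFb libraries, with untreated between at 96.2, 110 and 126, a difference of -3.75 ± 0.30 (SE, limma adjusted p = 3.13e-09). Egr3 was at 3.1, 1 and 5.65 in the LPS+IFNg libraries and 56.3, 51.2 and 48.2 in the TGFb libraries, a difference of -3.80. Batf2, an interferon-induced member of the family, was at 396, 385 and 1420 in the LPS+IFNg libraries and 1, 2.13 and 1 in the TGFb libraries, with 2215 reads against 1 and a ratio of 2390 (95% exact interval 429 to 94500), or 797 (273 to 3870). Its difference was 8.02, and 7.40 without LPS+IFNg replicate 3. Ier3 and Klf6 were higher by 1.65 and 1.28.

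Beyond the immune genes, genes of amino acid supply, many of them targets of the stress factor ATF4, differed nearly all in 1 direction. Of 22 tested, 21 were higher in LPS+IFNg and 1 lower (median 1.74). Asns, which makes asparagine, was at 1890, 1870 and 1900 in the LPS+IFNg libraries and 228, 203 and 180 in the TGFb libraries, with untreated between at 707, 732 and 824, a difference of 3.21 ± 0.08 (SE, limma adjusted p = 1.16e-16). Slc7a11, the cystine importer, was at 4870, 4090 and 3590 in the LPS+IFNg libraries and 313, 348 and 325 in the TGFb libraries, with untreated between at 1030, 1180 and 1230, a difference of 3.66 ± 0.09 (SE, limma adjusted p = 1.81e-16). Psat1, an enzyme of serine synthesis, was at 5030, 4770 and 4960 in the LPS+IFNg libraries and 1170, 1220 and 1170 in the TGFb libraries, with untreated between at 3160, 3310 and 3530, a difference of 2.05 ± 0.05 (SE, limma adjusted p = 2.36e-16). In all 3 the groups lay in the same order, LPS+IFNg above untreated above TGFb, with no overlap. Over the list, 20 members were higher than untreated with LPS+IFNg, where 29.5% of all genes tested were, and 21 were lower than untreated with TGFb, where 23.4% were. The medians of these were 0.80 and -0.98. Ddit4, an inhibitor of mTORC1, was the lower member, at 277, 288 and 151 in the LPS+IFNg libraries and 440, 399 and 402 in the TGFb libraries and a difference of -0.84, or -0.55 without LPS+IFNg replicate 3.

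Redox genes leaned the same way, with 17 of 24 tested members of the NADPH oxidase and NRF2 list higher in LPS+IFNg and 2 lower (median 0.59). Without LPS+IFNg replicate 3, 20 were higher and 2 lower (median 0.64). Cybb, which encodes the catalytic core of the superoxide-making oxidase of phagocytes, was at 32700, 30700 and 34000 in the LPS+IFNg libraries and 1310, 1310 and 1250 in the TGFb libraries, with untreated between at 3970, 4280 and 4670, a difference of 4.65 ± 0.06 (SE, limma adjusted p = 4.53e-20). Sod2, the mitochondrial superoxide dismutase, differed by 2.68, and Prdx1, a peroxiredoxin, by 1.72. The 2 lower members were Gpx1, a glutathione peroxidase, at 1880, 2010 and 1880 in the LPS+IFNg libraries and 4030, 3910 and 4140 in the TGFb libraries (-1.07), and Gclc, the catalytic subunit of glutathione synthesis (-0.67).

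Cell cycle genes were higher in LPS+IFNg for 24 of 42 tested and lower for 12 (median 0.55). Against untreated, 33 of the 42 were lower with TGFb (23.4% of all genes tested were) and 17 were lower with LPS+IFNg (29.4% of all genes were). Cdc20, an activator of the anaphase complex, was at 896, 896 and 794 in the LPS+IFNg libraries and 345, 314 and 316 in the TGFb libraries, with untreated between at 541, 574 and 665, a difference of 1.40 ± 0.09 (SE, limma adjusted p = 9.97e-11). The mitotic kinase Aurka was at 737, 765 and 793 in the LPS+IFNg libraries and 347, 352 and 356 in the TGFb libraries, and at 710, 750 and 775 untreated, so that TGFb was below untreated (-1.08), while the LPS+IFNg difference from untreated was 0.03 (limma adjusted p = 0.588). Tpx2, which activates Aurora A, differed by 1.08. Some of the lower members act at the start of DNA replication. Ccne2, cyclin E2, was at 113, 64.5 and 47.4 in the LPS+IFNg libraries and 283, 256 and 292 in the TGFb libraries, with untreated at 279, 349 and 412, a difference of -1.96, and the replicative helicase subunits Mcm4 and Mcm6 differed by -0.59 and -0.54.

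Between the stimuli, central carbon metabolism and sterol synthesis differed gene by gene and not as lists. Glycolysis and hypoxia-response genes were higher for 12 and lower for 9 of 28 (median 0.09, and between -0.04 and 0.15 as single libraries were left out). Hk3, the hexokinase of myeloid cells, was at 9180, 9520 and 13800 in the LPS+IFNg libraries and 1780, 1850 and 1680 in the TGFb libraries, a difference of 2.59 ± 0.10 (SE, limma adjusted p = 1.35e-13), and Pgk1 was higher by 0.95. Bnip3, a hypoxia-induced mitophagy receptor, was lower at 333, 361 and 391 in the LPS+IFNg libraries and 908, 954 and 883 in the TGFb libraries, and Ankrd37, another hypoxia-response gene, was at 6.2, 7.74 and 5.65 in the LPS+IFNg libraries and 105, 85.4 and 139 in the TGFb libraries, with untreated at 117, 148 and 174. TCA cycle and respiratory chain genes were higher for 9 and lower for 9 of 30 (median -0.01), with Cs (citrate synthase) at 0.45 and Idh1 at -0.64, or -0.33 without LPS+IFNg replicate 3. Against untreated, 19 of the 30 were lower and 0 higher with TGFb, where 23.4% of all genes tested were lower. With LPS+IFNg 15 were lower and 2 higher, where 29.4% of all genes tested were lower. Cholesterol synthesis genes were higher for 5 and lower for 6 of 24 (median 0.02), with Idi1 at 0.74 and Cyp51 at -0.72. Against untreated, 12 of the 24 were lower and 1 higher with TGFb, and 14 were lower and 2 higher with LPS+IFNg, beside the same shares of all genes. Of 15 iron handling genes, 7 were higher and 5 lower (median 0.07, and 0.03 to 0.20 as single libraries were left out). Lcn2, which captures bacterial siderophores, had 1064 reads against 0, at least 383-fold higher in LPS+IFNg. Slc40a1, the iron exporter ferroportin, was at 173, 157 and 362 in the LPS+IFNg libraries and 606, 617 and 617 in the TGFb libraries, with untreated at 211, 228 and 275, a difference of -1.51.

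Of 16 tested alternative activation genes, which IL4 is best known to induce, 3 were higher in LPS+IFNg and 8 lower (median -0.30). Flt1, a VEGF receptor, was at 3500, 3510 and 3700 in the LPS+IFNg libraries and 12500, 12900 and 13000 in the TGFb libraries, with untreated at 3360, 3620 and 3810, a difference of -1.84 ± 0.06 (SE, limma adjusted p = 1.82e-15). Flt1 differed from untreated by -0.01 with LPS+IFNg (limma adjusted p = 0.87) and rose by 1.83 with TGFb. Its ligand Vegfa was higher in LPS+IFNg by 0.52, and Clec10a, a galactose lectin, was higher by 1.44.

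Set beside the untreated libraries, a direct difference arose in several ways. Apoe, Tgfbr1, Tgfbr2, Cebpa, Cxcr4, Cd74, Cybb, Slc7a11, Asns and Psat1 were called in opposite directions by the stimuli. Emr1, the gene of the macrophage marker F4/80, and Ctss were above untreated with both, Emr1 by 1.21 with LPS+IFNg and 0.89 with TGFb, which left a direct difference of 0.32. Mrc1 was below untreated with both, at differences of -1.97 and -0.82. Flt1 and Aurka differed from untreated with TGFb, and their LPS+IFNg differences of -0.01 and 0.03 did not pass the test.

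**Figure D5:**
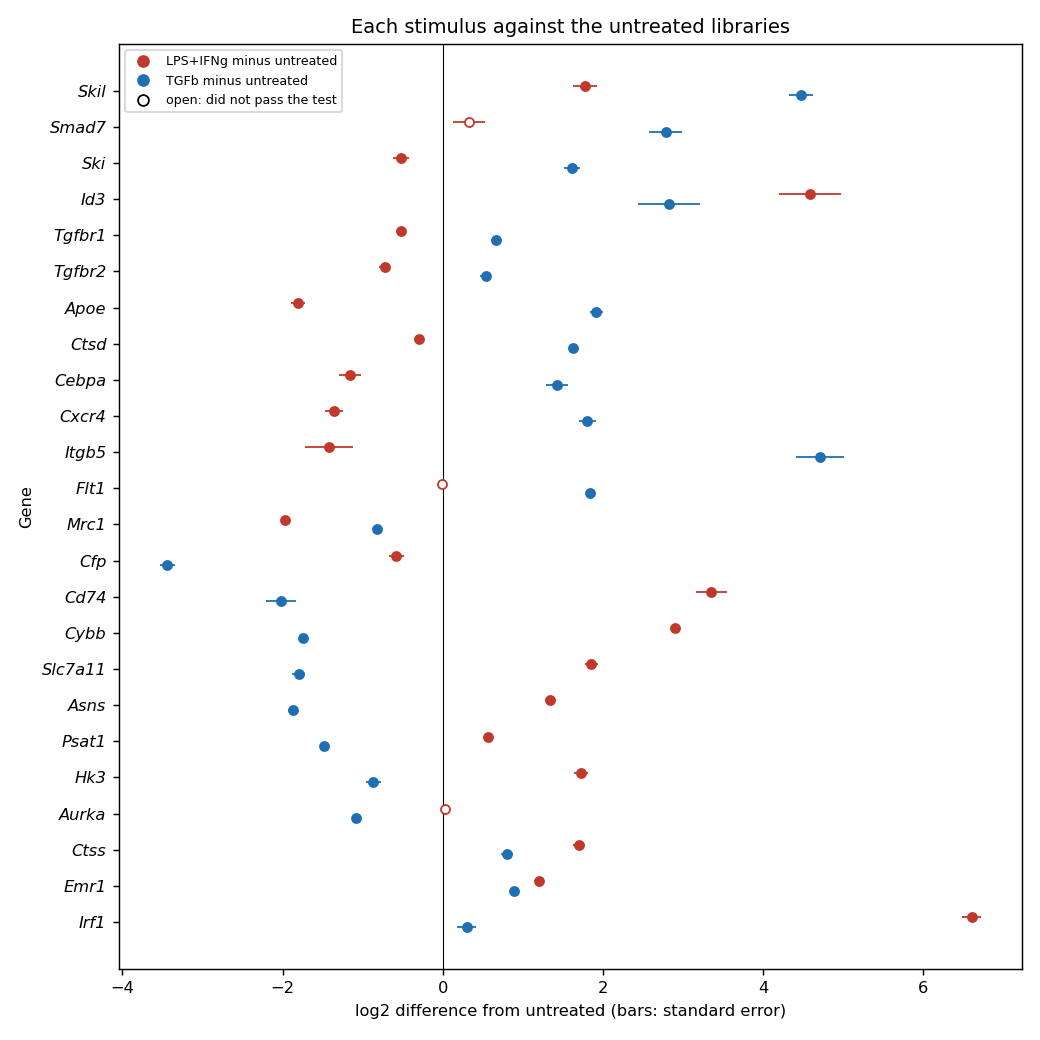
Log2 differences from the 6 shared untreated libraries for genes described in the text, with LPS+IFNg in red and TGFb in blue, bars for the standard error and open circles where the test was not passed. Apoe (-1.81 and 1.92) and Cybb (2.91 and -1.74) show opposite moves, and Skil (1.78 and 4.47) shows moves in 1 direction.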

How the data were processed

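Per the labels' protocols, RNA was extracted with TRIZOL and sequenced from Illumina TruSeq RNA libraries. The submitters' processing notes name TopHat2 2.0.3, Partek 6.6, R 3.0.2, DESeq2 and mm10. Annotation, counting rule and strand use are not given in the sources used here. Overlapping, antisense and near-identical genes can therefore not be separated. The authors deposited a normalized signal per gene and library: from the values, read counts divided by 1 factor per library, with values below 1 set to 1. In units of 1 read, 100% of values above 1 were whole within 0.01 reads plus an allowance for rounding of the deposited values. That allowance grows with the value, so the check says little about the highest values. The reads so recovered were used for depth and low counts only. The table has 11201 genes, none with a highest value under 11.1, and 0 value columns were left out.

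limma 3.58.1 in R 4.3.3, with the empirical Bayes trend, was fitted to log2(value + 1) of all 15 libraries in 4 groups without covariates, for the 11138 genes that reached 10 in 3 or more libraries. Fold changes on this scale understate the change of low genes. Benjamini-Hochberg adjustment covered all genes tested. Other tools were Python 3.11.15 with pandas 2.3.3 and scipy 1.17.1.

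The comparison, the gene lists and the named genes were chosen with earlier results of these data known. The text names the measured genes of 2 panels, the called genes with the 12 largest differences on each side, given no overlap and a mean of 50 or more in the higher group, and up to 3 called members a side of each list. A few genes taken by this rule are left unreported, and promoters were chosen after values were seen. Where a group had 0 reads, a fold is a lower bound that takes 3 counts for that group as a whole. The reads of the other group are pooled over its libraries, so this is no bound for a single library. Where a group had 1, 2 or 3 reads, the fold is a ratio of depth-adjusted reads, pooled likewise, with a 95% exact interval. That interval covers counting error only. Positions are from GENCODE M21 (GRCm38, that is mm10) and promoters from RefSeq (GRCm38.p6). On simulated reads, with each gene's spread taken from the 6 untreated libraries, 34% of 50 genes changed 1.25-fold were recovered. The share was 78% at 1.5-fold, 92% at 2-fold and 92% at 4-fold, with 3 false calls among 10938 unchanged genes. Few genes were changed there, and no simulated library stood apart as LPS+IFNg replicate 3 does. These rates therefore need not hold for the real comparison. Alternatives were 2 pseudocounts, 2 filters, the 6 libraries alone, equal totals, quantile normalization and leaving out each library, and, added after seeing the data, array weights and no trend.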

Additional observations from a re-analysis of the deposited data

Results flagged for a closer look

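Among the 45 measured genes of the panels, the 6 untreated libraries of each were searched for 1 library far from the rest, and 4 genes had one. Chance gives about 1 such library in 20 groups where values are not tied at the floor. Cxcl10 stood at 6.47 in untreated replicate 5, against 11.5 to 16 in the other 5 untreated libraries. Cxcl9 stood at 1.89 in untreated replicate 1, Ciita at 1.1 in untreated replicate 3 and Olfml3 at 1.08 in untreated replicate 5, with the other untreated libraries at the floor of 1 in each case. The last 3 values stand for single reads, so they differ from the floor by no more than counting error. With the other values tied there, any value above the floor would have been flagged. None of these libraries belongs to the direct comparison of LPS+IFNg with TGFb.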

How the results depend on the processing

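The counts of called genes stayed within 1.5 times of those reported under all 15 alternatives run. As single libraries were left out, the called genes numbered 6406 to 6799, those at least 2-fold higher in LPS+IFNg 859 to 981, and those at least 2-fold higher in TGFb 841 to 946. Without LPS+IFNg replicate 3 the last 2 counts were 859 and 841. Of the 1816 genes called at least 2-fold, 1772 to 1816 were called the same way in every alternative except the stricter filter at a value of 50, which tests fewer genes and kept 1405. Quantile normalization put 45.1% of the calls on the LPS+IFNg side, and equal totals 46.4%, in place of 50.9%. Of the 200 named genes, 198 were called (all but Smad3 and Arg1), no difference changed sign, and 9 called genes lost the call under some alternative (Canx, Ptges, Bcl2l1, Tnfrsf1a, Fabp5, Aldh1l1, Socs3, Klf10 and Mertk). With the fit limited to the 6 libraries, Canx, Bcl2l1, Tnfrsf1a, Fabp5, Socs3, Klf10 and Mertk were not called, with the same differences and fewer samples to estimate the spread. List medians changed sign somewhere for 4 lists (TCA cycle, cholesterol synthesis, glycolysis and scavenger genes). No paired analysis was possible because the columns carry no replicate numbers. The planned edgeR and DESeq2 alternatives were not run, since floored values do not give counts in every library. Of the 6 libraries compared, TGFb replicate 2, with 3715535 reads, limits low genes the most, as 1 read is worth 2.13 there.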

Other observations

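Outside every list used above, the 20 genes most in favour of each stimulus were looked at after values were seen, by the conditions used for the ranked genes. On the LPS+IFNg side, Saa3, an acute phase protein, was the most abundant, with 14800, 13800 and 14300 in the LPS+IFNg libraries, 140, 130 and 144 in the TGFb libraries and 113, 150 and 196 (lowest, median and highest) in the untreated ones. Several were DNA-sensing PYHIN family genes, whose members are close copies of each other, so the division of reads between them is uncertain. Ifi204 was at 1120, 1150 and 2230 in the LPS+IFNg libraries and 24.4, 19.2 and 22.8 in the TGFb libraries, and Mndal had 1276 reads against 0. Ly6a, a surface antigen induced by interferon, had 4185 reads against 0. Its values of 686, 653 and 2870 were highest in LPS+IFNg replicate 3. Aoah, which inactivates LPS by removing its acyl chains, was at 523, 489 and 666 in the LPS+IFNg libraries and 14.5, 12.8 and 10.4 in the TGFb libraries, with untreated at 50.4, 69.9 and 77.3. Gas7 was unlike these, with 1580, 1580 and 1400 in the LPS+IFNg libraries and 8.71, 4.27 and 11.1 in the TGFb libraries but 1090, 1180 and 1190 in untreated libraries, so that its difference of 7.48 ± 0.18 (SE, limma adjusted p = 1.33e-16) lay on the TGFb side, -7.10 from untreated against 0.38 with LPS+IFNg.

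On the TGFb side, Adssl1, an enzyme of AMP synthesis, was at 492, 551 and 571 in the LPS+IFNg libraries and 6110, 6520 and 6000 in the TGFb libraries, with untreated between at 1650, 1800 and 1880, and Slc37a2, a sugar phosphate transporter of macrophages, was at 384, 351 and 495 in the LPS+IFNg libraries and 4340, 4620 and 4340 in the TGFb libraries, with untreated between at 1770, 1920 and 2020. Ace, the angiotensin converting enzyme, was at 84.5, 113 and 65.5 in the LPS+IFNg libraries and 1270, 1220 and 1310 in the TGFb libraries, with untreated between at 391, 416 and 477, a difference of -3.87 ± 0.13 (SE, limma adjusted p = 1.05e-14). It stood on the same side as angiotensinogen (Agt) above. Htr2b, a serotonin receptor, was at 3.1, 2.58 and 2.26 in the LPS+IFNg libraries and 79.5, 87.5 and 89.2 in the TGFb libraries, with untreated at 2.88, 4.03 and 8.41. Cd93, a receptor of early myeloid and endothelial cells, had 0 reads against 187. Snai1, a transcription factor known as a TGF-beta target in epithelial cells, was at 5.42, 8.6 and 4.52 in the LPS+IFNg libraries and 54, 68.3 and 58.6 in the TGFb libraries, with untreated at 1, 5.2 and 8.63. Rgs2, a brake on G protein signalling, was at 86, 97.1 and 123 in the LPS+IFNg libraries and 1590, 1650 and 1580 in the TGFb libraries, with untreated at 1130, 1160 and 1330, so its difference of -3.98 ± 0.09 (SE, limma adjusted p = 9.44e-17) lay mainly on the LPS+IFNg side, -3.54 from untreated against 0.44 with TGFb.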
